A study of Mus musculus with 3 samples.

Results

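Chemokines are small secreted proteins that direct the movement of leukocytes and other cells. They are named for the spacing of their first cysteines (Ccl, Cxcl and Cx3cl in mouse symbols), bind receptors coupled to G proteins, and are held on heparan sulfate of matrix and cell surfaces. Inflammatory chemokines such as Ccl2 and Cxcl2 are induced in many cell types and draw monocytes and neutrophils, whereas homeostatic chemokines such as Ccl21 and Cxcl12 are made constitutively and guide cells within tissues. In the embryonic kidney, resident macrophages and other blood-derived cells lie outside the ureteric tree, the branching epithelium that later forms the collecting ducts.

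Chemokine probes were chosen by their platform gene symbol, which had to start with Ccl, Cxcl or Cx3cl and a number, and by a value on each of the 3 arrays. Of 34 such probes, carrying 33 symbols, 7 (20.6%) met this, among 3915 genes that did; over all probes with 1 gene symbol the share was 23.9%. The 7 were Ccl2, Ccl6, Cxcl1, Cxcl2, Ccl21a, Ccl21c and Ccl27a, each with 1 probe. Ccl9 and Cx3cl1 had a value on array 3 alone, and the other 25 probes had none; a missing value is no measure of a low level, since the sources used here do not state the rule of the authors' filter. Probes that passed it may have done so through the fraction in which the gene was high.

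Kidneys came from HoxB7-GFP transgenic mouse embryos at 15.5 days post coitum, with both sexes pooled, so both fractions carry the transgene, in which HoxB7 regulatory sequence drives green fluorescent protein in the ureteric tree. Cells were sorted by fluorescence into GFP+ cells and GFP- cells, the latter holding every other kidney cell type, and each of 3 arrays compared amplified RNA of one fraction with that of the other, without a dye swap. Values are log2 ratios, likely GFP+ over GFP-, as the labels do not name the channels' dyes, and higher and lower are given in that direction. Fewer cells of a type and less RNA per cell cannot be told apart in such pools.

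The arrays held values for 5179, 4980 and 6187 gene features. Array 1 stood apart: across the 3915 genes, which are not independent replicates, Pearson's r was 0.883 between arrays 2 and 3 but 0.0799 and 0.277 between array 1 and arrays 2 and 3. Each result below is therefore also given without array 1 where that matters. All 5 tested genes of the ureteric epithelium marker list (Cldn7, Gata3, Krt8, Cldn3 and Spint2, of 18 listed) rose. List medians were 1.76, 2.21 and 2.26 on arrays 1, 2 and 3. The GFP+ side thus carried the tested markers of its label in this direction. That list was chosen with earlier results of these data known, and its genes had first to pass the authors' filter. By limma with Benjamini-Hochberg adjustment over all genes (threshold 0.05), 55 genes were lower in GFP+ cells, a background of 1.4%, and 54 were higher, 1.38%. At an unadjusted p below 0.05, 6.41% of genes were lower and 8.45% higher in limma, and 4.78% and 7.25% by the ordinary one-sample statistic. Over 4399 single probes, 68 were lower (1.55%) and 58 higher (1.32%).

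Promoter sequences are shown for the Cxcl1 and Cxcl2 genes because they are next to each other on chromosome 5 with 0 protein-coding genes between them and share a motif, and for Ccl6 as a lower gene without it. The letters are RefSeq sequence (GRCm38.p6), the 250 bases before each start site, 5′ to 3′; capitals mark the decamer GGGAATTTCC in the Cxcl genes, which is the first match of the kappaB consensus (bound by NF-kappaB factors) in the Cxcl1 window, and the ETS core GGAAGT, here read on the opposite strand, in Ccl6. Cxcl1 lies at chr5:90890995-90891244 on the plus strand, Cxcl2 at chr5:90903649-90903898 on the plus strand and Ccl6 at chr11:83593088-83593337 on the minus strand.
Cxcl1: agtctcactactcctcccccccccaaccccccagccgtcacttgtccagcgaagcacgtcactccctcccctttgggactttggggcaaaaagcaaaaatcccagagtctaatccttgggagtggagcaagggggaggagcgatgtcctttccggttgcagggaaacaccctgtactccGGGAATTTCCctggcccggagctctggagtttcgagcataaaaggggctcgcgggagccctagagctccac
Cxcl2: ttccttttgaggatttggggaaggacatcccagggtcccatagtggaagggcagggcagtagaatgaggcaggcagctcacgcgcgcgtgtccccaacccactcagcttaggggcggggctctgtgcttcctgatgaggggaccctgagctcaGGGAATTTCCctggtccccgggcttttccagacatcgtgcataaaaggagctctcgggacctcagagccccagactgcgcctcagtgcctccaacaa
Ccl6: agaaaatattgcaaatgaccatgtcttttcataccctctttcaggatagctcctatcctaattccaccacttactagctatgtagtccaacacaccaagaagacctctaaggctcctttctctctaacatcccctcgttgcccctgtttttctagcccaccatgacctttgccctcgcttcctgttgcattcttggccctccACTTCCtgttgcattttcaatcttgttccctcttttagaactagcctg

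The decamer started 71 bases before the Cxcl1 start and 97 bases before the Cxcl2 start, inside the longest run the pair of sequences share, gggaatttccctgg, of 14 bases. It was present on either strand in 29 of 32851 promoter windows of all genes (0.0883%), where windows run from 250 bases before to 50 after a start. Among chemokine genes with a window, 3 of 27 held it, Cxcl1, Cxcl2 and Cxcl3. Since the decamer was taken from the Cxcl1 window, its presence there was fixed in advance. Some genes have several windows, so a share of windows is not a share of genes. The looser kappaB consensus, which includes the decamer, was in 8.46% of all windows and in 8 chemokine genes, of which Cxcl1, Cxcl2 and Ccl27a were measured on all arrays. The ETS core was in 23.8% of windows and in 12 chemokine genes, Ccl6 being the 1 measured on all arrays. The other motifs searched on both strands were TGANTCA (AP-1), TTGCNNNAA (C/EBP), TTCCNGGAA (STAT) and TATAAA. They were found in 7.81%, 9.56%, 1.15% and 13.6% of windows, and among the measured chemokines with a window in Ccl27a (AP-1) and Cxcl1 (C/EBP) alone. A match describes letters in these windows and not a bound site. Of the 7 measured chemokines, 5 had a window under their current symbol. Ccl2 and Ccl21c had none, so neither was searched for any of these motifs.

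**Figure D1:**
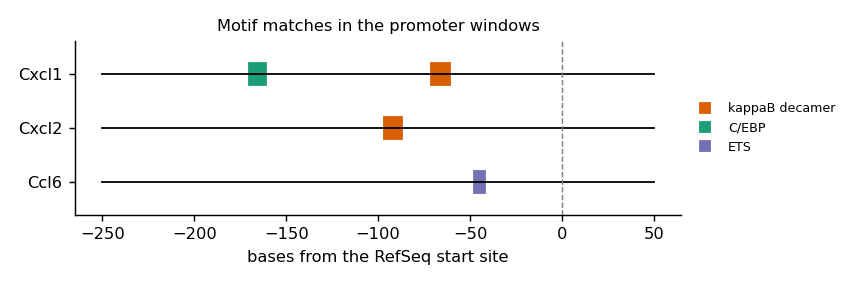
Positions of the kappaB decamer, C/EBP and ETS matches in the promoter windows of Cxcl1, Cxcl2 and Ccl6; the x axis gives bases from the RefSeq start site (dashed line) and each box spans the matched bases. The decamer lies 71 bases before the start in Cxcl1 and 97 bases before it in Cxcl2, and Ccl6 has 1 ETS match.

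All 4 measured inflammatory chemokines had a negative ratio on every array, as did 15.3% of all genes, while 20.7% of all genes were positive on every array. Cxcl2, Ccl6 and Ccl2 passed the test, and Cxcl1 did not. Of the 3 measured homeostatic probes, Ccl21c rose, Ccl21a had a positive ratio on each array without passing, and Ccl27a lay around 0. Thus 3 of 7 chemokines were lower and 1 of 7 higher at a background of 1.4% and 1.38%; since the probes had first to pass the authors' filter, these shares are a description.

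Cxcl2, which attracts neutrophils through the receptor Cxcr2, had log2 ratios of -2.22, -2.55 and -2.35 on arrays 1, 2 and 3. The arrays lay close together, and array 1, which disagreed with the others over all genes, gave nearly the same ratio here. The mean was -2.37 ± 0.17 (SD, n = 3 arrays), 5.18-fold lower in GFP+ cells (95% confidence interval of the log2 ratio -2.76 to -1.98; limma adjusted p = 0.00321). The ordinary one-sample statistic, which takes each gene's spread from its own 3 arrays, left none of the chemokine calls past the threshold, with an adjusted p of 0.183 for Cxcl2 and Ccl2, 0.227 for Ccl6 and 0.129 for Ccl21c. Cxcl2 was the 5th lowest of the 3915 genes, and it ranked 12th, 9th and 6th lowest on arrays 1, 2 and 3. Leaving out array 1, 2 or 3 moved the mean only between -2.45 and -2.28.

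Ccl6, a CC chemokine of rodents made mainly by macrophages and other myeloid cells, had ratios of -2.0, -2.40 and -2.40. Array 1 was the least negative, as for Cxcl2. The mean was -2.27 ± 0.23, 4.81-fold lower (limma adjusted p = 0.00321), and Ccl6 was the 9th lowest gene; without array 1 the mean was -2.40. Its ratio minus that of Cxcl2 was 0.22, 0.14 and -0.045 on arrays 1, 2 and 3, so their order was not the same on all arrays and their ranges overlapped. Ccl9, the protein-coding neighbour of Ccl6 on chromosome 11 and a chemokine of the same myeloid group, had a value on array 3 alone, -2.45, against -2.40 for Ccl6 there; with 1 array it was not tested.

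Ccl2, the main attractant of Ccr2-bearing monocytes, had ratios of -1.57, -1.84 and -1.72. The mean was -1.71 ± 0.14, 3.27-fold lower (limma adjusted p = 0.00604), the 24th lowest gene; without array 1 the mean was -1.78. It was less negative than Ccl6 on every array, by 0.43, 0.56 and 0.68, and the ranges of the pair did not overlap. With 3 arrays, an exact sign-flip test of any such difference cannot go below a two-sided p of 0.25, so these differences between chemokines are given without a test.

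Cxcl1, a close paralogue of Cxcl2 that signals through the same receptor, had ratios of -1.23, -0.68 and -0.78. All were negative, and here array 1 was the most negative. The mean was -0.90 ± 0.30, a ratio 1.86-fold below even, with a 95% interval of -1.34 to -0.46, and it missed the threshold (limma adjusted p = 0.0707). It passed when each array was centred on its median (adjusted p = 0.043) and when array 2 was left out (0.0366). Without array 1 it passed with a mean of -0.73 (0.00409), a setting in which 18.9% of all genes were called lower. Cxcl1 was less negative than Cxcl2 by 0.98, 1.87 and 1.57 on arrays 1, 2 and 3. The mean difference was 1.47 ± 0.45, or a 2.78-fold difference between their ratios. Both windows hold the decamer shown above, and its part in these ratios was not tested. Paralogues can share signal on an oligonucleotide probe, and how much these did was not tested.

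**Figure D2:**
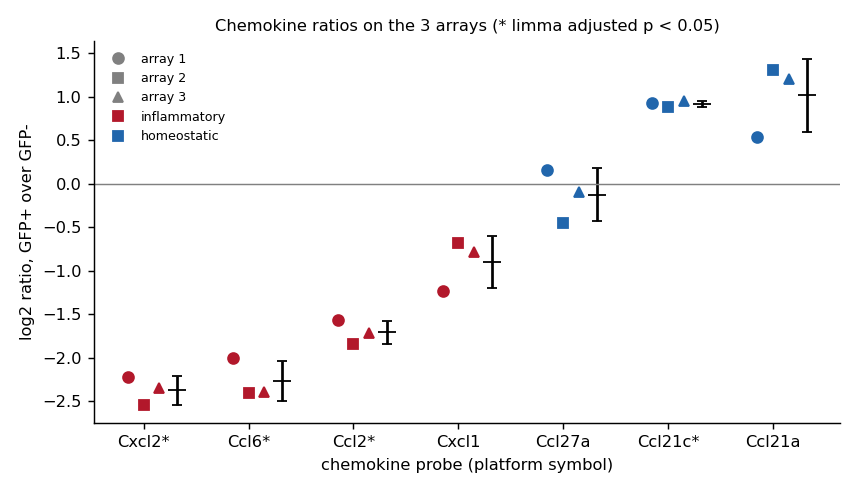
Log2 ratios of the 7 chemokines on each array (symbols), with the mean and SD over 3 arrays (black), inflammatory in red and homeostatic in blue; asterisks mark limma adjusted p below 0.05. The 4 inflammatory genes lie below 0 on every array, from -2.37 to -0.90 in the mean, and both Ccl21 probes lie above 0.

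Ccl21 is the ligand of Ccr7 that guides dendritic cells and lymphocytes, best known from lymphatic endothelium and lymph node stroma. Mice carry several near-identical copies on chromosome 4; the RefSeq table held 6 genes with the synonym of this protein, of which 3 had a probe here. The probe that the platform calls Ccl21a carries a transcript that RefSeq now assigns to Ccl21b, and the probe of the gene now named Ccl21a had no value on any array. Signal of the copies cannot be told apart by these names, so both measured probes are best read as Ccl21 signal.

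The Ccl21c probe had ratios of 0.92, 0.88 and 0.95, the tightest agreement among the 7 chemokines. Its mean of 0.92 ± 0.035 was 1.89-fold higher in GFP+ cells (95% interval 0.55 to 1.29; limma adjusted p = 0.0394), the 63rd highest gene. The call depended on the arrays kept: the mean stayed between 0.90 and 0.94 when 1 array was left out, but the adjusted p was 0.00224 without array 1, 0.0709 without array 2 and 0.494 without array 3. It was 0.205 with arrays 2 and 3 averaged to 1 replicate.

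The probe labelled Ccl21a had ratios of 0.54, 1.31 and 1.20, with array 1 well below the others. Its mean of 1.02 ± 0.42 corresponds to a 2.02-fold ratio and missed the threshold (95% interval 0.51 to 1.52; limma adjusted p = 0.0709). Without array 1 the mean was 1.26 and passed (0.000955), where 27.6% of all genes were called higher; without array 2 or 3 the adjusted p was 0.123 and 0.453. Quantile normalization also brought it past the threshold (0.0393). The Ccl21c probe was above it by 0.39 on array 1 and below it by 0.42 and 0.25 on arrays 2 and 3, so the order of the probes was not the same on all arrays.

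Ccl27a, a skin-associated chemokine that binds Ccr10, had ratios of 0.16, -0.45 and -0.094. The values fell on both sides of 0, with a mean of -0.13 ± 0.31 and a 95% interval of -0.57 to 0.32 (limma adjusted p = 0.783). This interval leaves room for a moderate difference either way. Ccl27a lay above Cxcl1 by 1.40, 0.23 and 0.69 and below the Ccl21c probe by 0.76, 1.33 and 1.05 on arrays 1, 2 and 3.

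In the order of mean ratios, Cxcl2 and Ccl6 overlapped in range, as did the Ccl21c and Ccl21a probes, while the steps from Ccl6 to Ccl2, Ccl2 to Cxcl1, Cxcl1 to Ccl27a and Ccl27a to Ccl21c had separate ranges. The inflammatory genes had a median of -1.99 and the homeostatic probes one of 0.92, against 0.034 over all genes. Their medians differed by 2.32, 3.01 and 2.99 on arrays 1, 2 and 3. On each array and in the mean, the homeostatic median was the value of a Ccl21 probe. Both Ccl21 probes were counted, though they are best read as Ccl21 signal, so the difference leans on that signal. The smallest gap between the classes, from Cxcl1 to Ccl27a, was 0.77 in the mean. Cx3cl1, a membrane-bound chemokine placed in neither class, had -0.45 on array 3 alone. None of the homeostatic Cxcl12, Cxcl13, Cxcl14, Ccl19, Ccl25 and Ccl28 had a value on any array, so the homeostatic side rests on Ccl21 and Ccl27a.

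**Figure D3:**
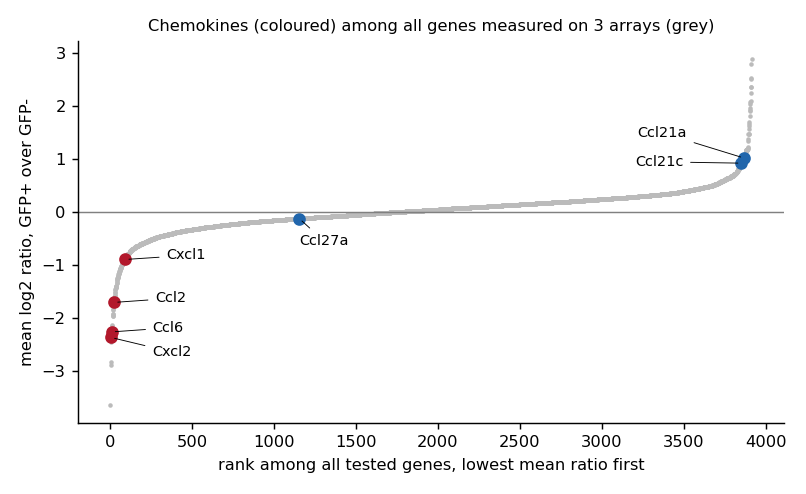
Mean log2 ratio of all 3915 tested genes (grey) in order of rank, with the 7 chemokines coloured (inflammatory red, homeostatic blue). Cxcl2, Ccl6 and Ccl2 sit at ranks 5, 9 and 24 from the low end, Cxcl1 at rank 92, and the Ccl21c and Ccl21a probes at ranks 63 and 47 from the high end.

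The arrays that disagreed over all genes gave like ratios for Cxcl2, Ccl6 and Ccl2, but not for Cxcl1. On array 1, the most distinct array, Cxcl2, Ccl6, Ccl2 and Cxcl1 ranked 12th, 16th, 33rd and 60th lowest of 3915 genes. On array 2 they ranked 9th, 11th, 37th and 427th, and on array 3 they ranked 6th, 5th, 23rd and 179th. Ccl27a moved most, from rank 2584 on array 1 to 667 and 1233 on arrays 2 and 3. The Ccl21a probe went from rank 3344 to 3876 and 3881, and the Ccl21c probe stood at 3737, 3808 and 3852.

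**Figure D4:**
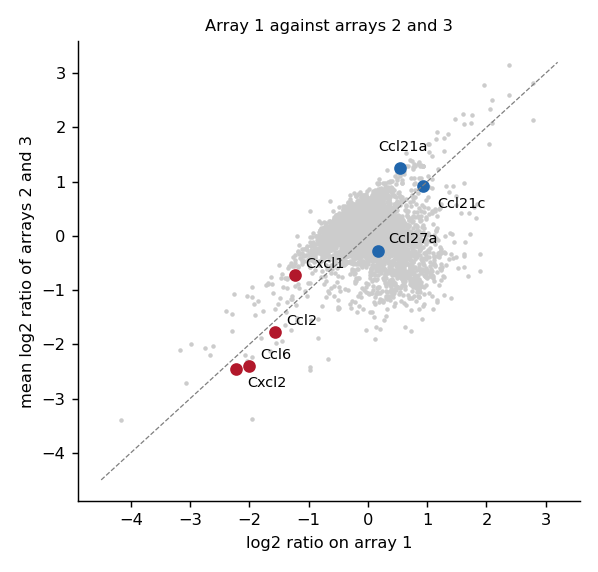
Log2 ratio on array 1 (x) against the mean log2 ratio of arrays 2 and 3 (y) for all 3915 genes (grey) and the 7 chemokines (inflammatory red, homeostatic blue); the dashed line marks equal values. Cxcl2, Ccl6, Ccl2 and the Ccl21c probe lie near the line, and the Ccl21a probe lies above it.

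Among 24 listed chemokine receptors, 22 had a probe and 2 had a value. Ackr3, an atypical receptor that takes up Cxcl12 and Cxcl11, had ratios of 0.44, 0.83 and 0.64, a mean of 0.64 ± 0.19 that missed the threshold (limma adjusted p = 0.144). Ccr8 had 0.19 on array 3 alone. The receptors of the measured ligands, Ccr2, Cxcr2, Ccr7 and Ccr10, had no value on any array, nor did Ccr1 and Cxcr4. Of the chemokine-like factors kept under other symbols, Mif, a cytokine that also binds Cxcr2, lay around 0 (0.066 ± 0.23; limma adjusted p = 0.872), and Cklf had 0.74 and 0.02 on arrays 1 and 3.

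Downstream of the receptors, 0 of 14 tested signalling genes passed in limma, with 3 lower at an unadjusted p below 0.05 (6.41% over all genes) and 1 lower by the ordinary one-sample statistic (4.78%); their median was -0.24. The members of largest mean were Rac2, a GTPase of blood cells (-1.01 ± 0.43; limma adjusted p = 0.0751), Gnai2, the inhibitory G protein subunit through which chemokine receptors act (-0.65 ± 0.42), Rgs2, which shortens G protein signals (-0.59 ± 0.20), and Gng5 (0.42 ± 0.54). Of 9 tested genes of NF-kappaB and inflammatory cytokine signalling, 1 fell in limma (1.4% over all genes). This was Tlr2, a receptor for bacterial lipoproteins, with -1.03, -1.13 and -1.07 on arrays 1, 2 and 3 (mean -1.08 ± 0.054, limma adjusted p = 0.0241). At an unadjusted p below 0.05, 4 of the 9 were lower and 0 higher in limma (6.41% and 8.45% over all genes). By the ordinary statistic, 1 was lower and 1 higher (4.78% and 7.25%). Cebpb, a transcription factor of myeloid and stress responses (-0.83 ± 0.37), Nfkbiz, a nuclear modulator of NF-kappaB (-0.51 ± 0.35), and the adhesion molecule Icam1 (-0.50 ± 0.57) did not pass, and that list's median was -0.47. Of 10 tested proteoglycans, heparan sulfate enzymes and chemokine-cleaving proteases, 1 fell in limma (1.4% over all genes), the proteoglycan Dcn (-1.61 ± 0.26). Dpp4, a protease that trims many chemokines (0.72 ± 0.25, limma adjusted p = 0.127), Gpc3 (-0.59 ± 0.53) and Ext1 (-0.49 ± 0.46) did not pass. At an unadjusted p below 0.05, 2 of the 10 were lower and 1 higher in limma (6.41% and 8.45% over all genes). The ordinary statistic also gave 2 lower and 1 higher (4.78% and 7.25%).

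Macrophage markers moved with the lower chemokines, and those of other blood-derived cells did so in part. Of 20 macrophage genes, 13 had a value and 8 were tested. Cd52 (-2.84 ± 0.28), Fcer1g (-2.33 ± 0.56), Mrc1 (-1.96 ± 0.28), Laptm5 (-1.86 ± 0.042) and C1qa (-1.56 ± 0.15) fell, at a background of 1.4% over all genes. The 3 that did not pass were Tyrobp (-1.28 ± 0.60), Lgmn (-0.58 ± 0.42) and Ctss (-0.52 ± 0.38), and the list's median was -1.73, -1.75 and -1.78 on arrays 1, 2 and 3. Some macrophage genes had values on part of the arrays and were not tested. Fcgr3 had -4.46 and -3.24 on arrays 2 and 3, and Aif1 had -1.35 and -0.80 on arrays 1 and 2. On array 3 alone, Cd68 had -1.69, Ptprc -0.89 and Lyz2 0.31. Adgre1, Cd14, Cd163 and Cx3cr1 had no value. Of 15 neutrophil and monocyte genes, 3 were tested and 1 was lower (1.4% over all genes). S100a9 fell (-3.66 ± 0.44), Lcn2 (0.70 ± 0.24) and Ly6c1 (-0.35 ± 0.24) did not pass, and Mpo, Elane, Camp and Ltf had no value. On array 3 alone, S100a8 had -2.30 and Prtn3 0.11. Of the mast cell genes, Cpa3 (-0.76 ± 0.20; limma adjusted p = 0.084) and Kit (-0.18 ± 0.25) were tested and did not pass. The part these cells had in the chemokine ratios was not tested.

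Most tested genes of the stroma list and part of the cap mesenchyme and erythroid lists fell too, at a background of 1.4% over all genes. The 5 tested stroma genes had a median of -1.61, with Mgp (-2.46 ± 0.62), Tcf21 (-1.94 ± 0.35), Dcn (-1.61 ± 0.26) and Col5a2 (-1.10 ± 0.35) past the threshold, and the 6 of cap mesenchyme one of -1.19, with Crym (-1.72 ± 0.59), Wt1 (-1.42 ± 0.37) and Uncx (-1.20 ± 0.15) past it and Cited1 (-1.18 ± 0.47) not; Osr1 was on the other side of 0 (0.17 ± 0.28). Among the 3 tested genes of red cells, the globin Hba-x fell (-2.22 ± 0.38), as did Alas2 (-2.15 ± 0.074), while Hba-a1 did not pass (-0.33 ± 0.34). Of 8 tested blood endothelial genes, 0 passed in limma. At an unadjusted p below 0.05, 3 were lower in limma (6.41% over all genes) and also 3 by the ordinary statistic (4.78%). Ramp2, Emcn, Kdr and Cldn5 had the largest means, from -0.96 to -0.41. Cdh5 had -2.08 and -1.28 on arrays 2 and 3 and Pecam1 had -1.46 on array 3 alone, so neither was tested. The part of these cell types in the chemokine ratios was not tested.

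For Ccl21, the markers of lymphatic endothelium are of interest. Of the 7 listed, which include Ccl21a itself, Lyve1, Prox1, Flt4, Reln and Mmrn1 had a probe but no value on any array. Pdpn, a surface glycoprotein of lymphatic vessels that several epithelia and podocytes also express, rose, with ratios of 0.74, 1.60 and 1.18 (mean 1.17 ± 0.43; limma adjusted p = 0.0477). Pdpn was the 1 tested gene of this list, and 1.38% of all genes were higher. The part of lymphatic cells in the Ccl21 ratios was not tested.

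Genes induced quickly by cell handling are given because Cxcl1, Cxcl2 and Ccl2 are themselves quickly induced. Of 12 tested immediate early and heat shock genes, 1 rose, the small heat shock protein Hspb1 (1.05 ± 0.23, limma adjusted p = 0.0367), and 0 fell. Over all genes, 1.38% were higher and 1.4% lower at this threshold. At an unadjusted p below 0.05, 3 were lower and 2 higher in limma (6.41% and 8.45% over all genes). By the ordinary statistic, 0 were lower and 2 higher (4.78% and 7.25%). Fos had ratios of 0.12, -1.15 and -1.38 and Jun of 0.16, -1.29 and -0.83, both near 0 on array 1 and negative on arrays 2 and 3, and Jund ranged from -2.75 to 0.91. Btg2, named outside the rule after its values were seen, went the other way, with -1.11 on array 1 and -0.32 on arrays 2 and 3, and the list's medians were 0.039, -0.034 and 0.021. The part of cell handling in the chemokine ratios was not tested.

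**Figure D5:**
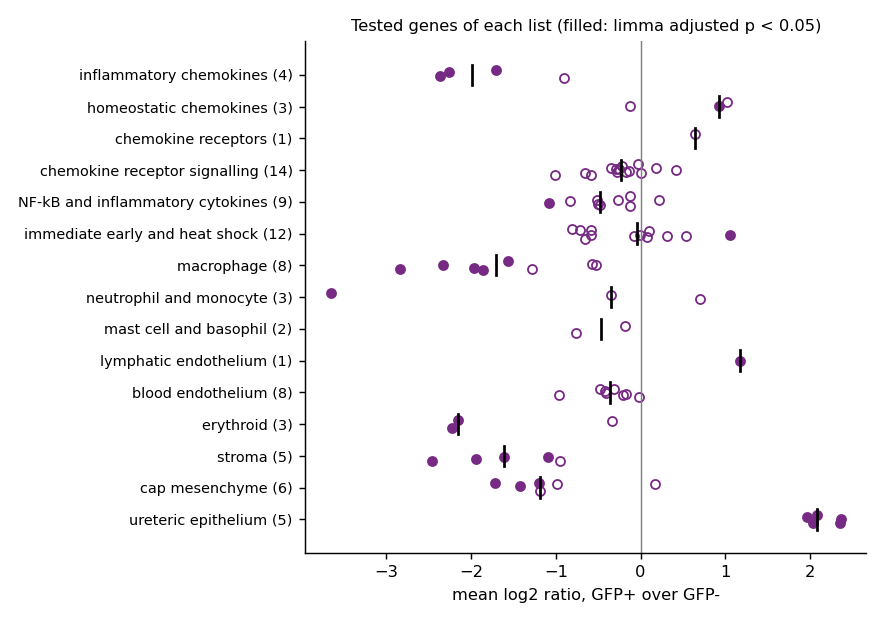
Mean log2 ratio (x) of each tested gene of the chemokine, pathway and marker lists (rows, number tested in brackets); filled points passed limma at adjusted p below 0.05 and black bars are list medians. The median of the inflammatory chemokines (-1.99) lies near those of the erythroid (-2.15), macrophage (-1.71) and stroma (-1.61) lists. The homeostatic probes lie between 0 and the ureteric epithelium list (2.08), apart from Ccl27a just below 0.

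The genes nearest to each chemokine, by Euclidean distance over the ratios of the 3 arrays, were taken by a fixed number of 3. For Cxcl2 they were Ccl6 (distance 0.26), the tropomyosin Tpm2 (0.28) and Alas2 (0.41), the enzyme that starts heme synthesis in red cells. For Ccl6 they were Tpm2 (0.18), the lipoprotein Apoe (0.25) and Cxcl2. For Ccl2 they were the smooth muscle myosin light chain Myl9 (0.28), the complement component C1qa (0.29) and the lysosomal Laptm5 (0.30). Only 4 to 6 genes lay within 0.5 of each of these. For Cxcl1 the nearest were Tango2, Cpxm1 and Lama4 (0.17 to 0.22), and 40 genes lay within 0.5. The Ccl21c probe had Ldhb (0.071), the ephrin Efnb2 (0.16) and Spry1 (0.16), which dampens growth factor receptor signals, as its neighbours, and the Ccl21a probe had Ddt (0.11), the growth factor Hbegf (0.14) and Hoxb6 (0.15). Ccl27a, near the centre of the distribution, had 568 genes within 0.5, the nearest being Slc38a10, Macf1 and Nckipsd.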

How the data were processed

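RNA of sorted GFP+ and GFP- kidney cells was compared on 3 arrays of 2 colours. Per the labels, the authors read images with Imagene 5.5, corrected the control channel by Lowess (20% smoothing), and raised control values below 10 to 10, which limits high ratios of dim spots. The deposited values are log2 ratios: of 16356 values, 99.97% turned into ratios with exactly 3 decimals (tolerance 0.01 of a thousandth) when taken as base 2, against 2.37% as base e. No intensities were analysed here.

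Of 22702 features, 881 controls were left out, and 4399 probes had values on all 3 arrays. Symbols were updated through RefSeq (GRCm38.p6) for 15972 probes by gene identifier and 6 by accession, while 680 kept theirs. Probes of a gene were averaged. The mean of each gene was set against 0 by a moderated two-sided test (limma 3.58.1, R 4.3.3, Benjamini-Hochberg adjustment). The fit was also run on simulated independent arrays. Here Pearson's r was 0.883 between arrays 2 and 3 but 0.0799 between arrays 1 and 2. The simulation thus does not show how the test behaves on arrays related in this way. Nothing in the labels ties the arrays to separate embryo pools; p-values thus cover only the spread among 3 arrays, possibly a technical one, and so few arrays limit precision. Without a dye swap, dye effects cannot be told apart from cell differences. Members and lists were chosen with earlier results of these data known; of each list, genes past the threshold and the 4 of largest mean are named. Alternatives were leave-one-out fits, 3 normalizations, array weights, an ordinary one-sample statistic, averaged arrays 2 and 3, values on at least 2 arrays, and single probes.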

Additional observations from a re-analysis of the deposited data

How the results depend on the processing

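Cxcl2, Ccl6 and Ccl2 kept their direction under all 11 alternatives and passed in 10. Adjusted p was at most 0.00885 in those 10; the ordinary one-sample statistic gave 0.183, 0.227 and 0.183 with unmoved means of -2.37, -2.27 and -1.71, and by it 0 probes were lower and 1 higher after adjustment (213 and 319 at an unadjusted p below 0.05). Ccl21c kept its mean (0.92) but missed the threshold in 4 of the 11. The adjusted p was 0.129 by the ordinary statistic and 0.205 in limma with arrays 2 and 3 averaged (mean 0.92). In limma it was 0.0709 without array 2 and 0.494 without array 3. Without 1 array the Ccl21c mean ran from 0.90 to 0.94. Cxcl1 passed after centring (-0.94), centring with scaling (-0.94), quantile normalization (-0.94) and array weights (-0.75). It also passed without array 1 (-0.73) and without array 2 (-1.01), but not without array 3 (-0.96). The Ccl21a probe passed with quantile normalization (1.03), array weights (1.22) and without array 1 (1.26). It did not pass without array 2 (0.87) or array 3 (0.92). Ccl27a ran from -0.27 to 0.034 without 1 array, turning positive without array 2 (0.034, adjusted p = 0.999). The difference between class medians, 2.91, ran from 2.79 to 3.01 without 1 array. Without 1 array, probes past the threshold ran from 23 to 1225 higher and 60 to 810 lower, against 58 and 68; the ends of 1225 and 810 came without array 1 and those of 23 and 60 without array 3. Array weights gave 198 and 140, and averaging arrays 2 and 3 gave 32 higher and 68 lower. The weights (2.18, 16.0 and 0.0286) stopped short of convergence, so that setting rests almost wholly on array 2. The averaged and leave-one-out settings hold fewer replicates. The causes of these changes in counts were not tested. Each ratio sets both fractions against each other on the same array, so the one-sample tests already use that pairing. The arrays form a single group, so no comparison between groups of arrays was possible. Signal over background was not analysed here.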

Other observations

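Genes outside the chemokine family were taken by cytokine symbols (interleukins, colony-stimulating factors, tumour necrosis factors, interferons, related growth factors and their receptors). The pattern was chosen after the chemokine values were seen. It matched the first letters of a symbol, so Tnfaip8l1, neither a cytokine nor a receptor, was also taken. Of 133 such genes with a probe, 17 were measured on all 3 arrays, and 0 passed in limma, and 4 had a lower ratio at unadjusted p under 0.05, a cut that 6.41% of all genes met in that direction (by the ordinary statistic, 3 lower and 1 higher, against 4.78% and 7.25%). Their median was -0.049, against 0.034 over all genes. The 4 were Vegfc, a growth factor of lymphatic vessels (-0.96 ± 0.39; limma adjusted p = 0.0783), Il6st, the signalling receptor shared by interleukin 6 and related cytokines (-0.79 ± 0.42; 0.146), Csf2ra (-0.41 ± 0.13; 0.299) and Tnfsf12 (-0.39 ± 0.14; 0.336). The thymic and epithelial cytokine Tslp (0.044 ± 0.32) and interleukin 15 (-0.049 ± 0.87) lay around 0.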
